A study of Mus musculus with 29 samples.

Results

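The Pax genes studied here are the 6 members of the paired box family that pattern or mark the embryonic nervous system: Pax2, Pax3, Pax5, Pax6, Pax7 and Pax8. They were taken by name from the count tables, and all 6 were found among the 25239 genes listed. The tables come from 8 poly(A) RNA-seq libraries of mouse brain at E11.5, in mid-gestation, in 4 groups of 2 pools: wild-type midbrain, midbrain of hs654 knockout embryos, wild-type forebrain, and forebrain of hs267-853 knockout embryos. Each pool joined dissected tissue of several samples of one tissue and genotype, and both knockouts remove enhancer sequence rather than a gene, so no gene count checks the genotype labels. Strain, sex and zygosity are not given in the sources used here, nor whether the label hs267-853 stands for 1 or 2 enhancers. The series also holds 21 enhancer-capture HiC samples, which were not analysed here.

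Pax proteins are transcription factors that bind DNA through the paired domain, and several carry a second DNA-binding domain, the homeodomain. Pax2, Pax5 and Pax8 form one subfamily and act together at the boundary of midbrain and hindbrain, where they help set up and maintain the isthmic organizer with En1, Wnt1 and Fgf8. Pax3 and Pax7 form another, expressed in the dorsal neural tube, including the roof of the midbrain that becomes the tectum. Pax6 marks progenitors of the dorsal telencephalon, the diencephalon and the eye, and is needed for cortical and eye development.

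Levels are given in CPM, a gene's count relative to the total over genes of its library, with totals adjusted by the trimmed mean of M values (TMM). CPM is not divided by transcript length, so levels are compared between samples and not between genes. The library totals over genes ran from 9051632 to 18024406 counts. A 95% counting interval (exact Poisson) covers counting error only. The p-values take in counting error and the spread between pools, estimated over the 4 groups with help from other genes, and nothing else. A gene was called at a Benjamini-Hochberg adjusted p under 0.05 over 15383 tested genes, from the quasi-likelihood test of edgeR.

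The promoters of Pax5, Pax7 and Pax8, which were higher in midbrain, and of Pax6, which was higher in forebrain, are shown to give the sequence at the starts of genes that differed in opposite directions. Each is the 250 bases before a start in the table, from RefSeq on GRCm38.p6, written 5′ to 3′ on the strand of the gene. Capitals mark matches on either strand to the CCAAT box, spelled as in its name, or to GGGCGG, the core of the GC box.
Pax5, chr4:44710695-44710944, minus strand: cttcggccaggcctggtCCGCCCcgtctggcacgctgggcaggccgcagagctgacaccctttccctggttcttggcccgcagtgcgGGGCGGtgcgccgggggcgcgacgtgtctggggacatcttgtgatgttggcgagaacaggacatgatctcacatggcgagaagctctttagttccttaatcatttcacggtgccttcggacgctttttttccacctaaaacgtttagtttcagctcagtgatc
Pax7, chr4:139832969-139833218, minus strand: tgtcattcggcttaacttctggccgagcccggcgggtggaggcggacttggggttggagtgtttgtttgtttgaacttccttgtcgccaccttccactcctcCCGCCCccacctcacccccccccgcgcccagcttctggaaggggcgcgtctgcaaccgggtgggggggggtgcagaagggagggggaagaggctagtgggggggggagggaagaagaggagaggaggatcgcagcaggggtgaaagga
Pax8, chr2:24475600-24475849, minus strand: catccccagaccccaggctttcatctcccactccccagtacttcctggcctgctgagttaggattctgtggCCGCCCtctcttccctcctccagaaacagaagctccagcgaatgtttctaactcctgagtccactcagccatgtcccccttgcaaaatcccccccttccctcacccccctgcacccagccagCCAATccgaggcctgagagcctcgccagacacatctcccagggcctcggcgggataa
Pax6, first of 2 starts, chr2:105668646-105668895, plus strand: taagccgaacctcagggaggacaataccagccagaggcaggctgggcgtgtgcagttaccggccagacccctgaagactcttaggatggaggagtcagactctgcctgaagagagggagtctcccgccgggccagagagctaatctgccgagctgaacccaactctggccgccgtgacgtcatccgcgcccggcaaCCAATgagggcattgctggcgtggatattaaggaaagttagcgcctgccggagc

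The RefSeq table held 8 promoters for 5 of the 6 genes: 3 for Pax2, 2 for Pax6 and 1 each for Pax5, Pax7 and Pax8. The GC box letters stood in 5 of the 8 stretches, against 32.7% of all 32841 promoters of the same length, and the CCAAT letters in 2 of 8, against 33.9%. The TATA box letters TATAAA stood in 0 of 8, against 12.4% of all promoters. The homeodomain core TAATTA (4.84% of all), the octamer ATGCAAAT (1.60%) and the TCF/LEF core CTTTGA (13.8%) also had 0 matches. The SOX core ACAAAG (16.5% of all) stood in 3 of 8, at the second start of Pax6 and at 2 starts of Pax2, and the E-box CAGCTG (13.0%) at 1 start of Pax2. By CpG dinucleotides the Pax5 stretch held 19, Pax7 13, Pax8 6 and the first Pax6 start 15, against a median of 6 over all promoters. Counts are per gene, so use of one start or another could not be told apart.

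In wild-type embryos all 6 Pax genes differed between the tissues, 5 lower and 1 higher in forebrain. The share of all tested genes called in this comparison was 29.6%, with 15.3% lower and 14.3% higher in forebrain, by edgeR. All 6 genes passed the filter on low counts, but Pax8 passed it only through the midbrain libraries, and Pax2 through the midbrain libraries and 1 forebrain library. Each of the 6 also had both wild-type forebrain pools outside both wild-type midbrain pools, which held for 65.9% of all tested genes. In bulk tissue, fewer cells of a type and less RNA per cell cannot be told apart. Markers of neurons also differed between the tissues: all 8 (Tubb3, Dcx, Stmn2, Elavl3, Elavl4, Map2, Nefl and Nefm) were called lower in forebrain, with log2 differences from -0.58 for Elavl3 to -4.00 for Nefl. They summed to 3526 and 3380 CPM in wild-type midbrain and 1810 and 1575 CPM in wild-type forebrain, and their part in the Pax values was not tested.

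**Figure D1:**
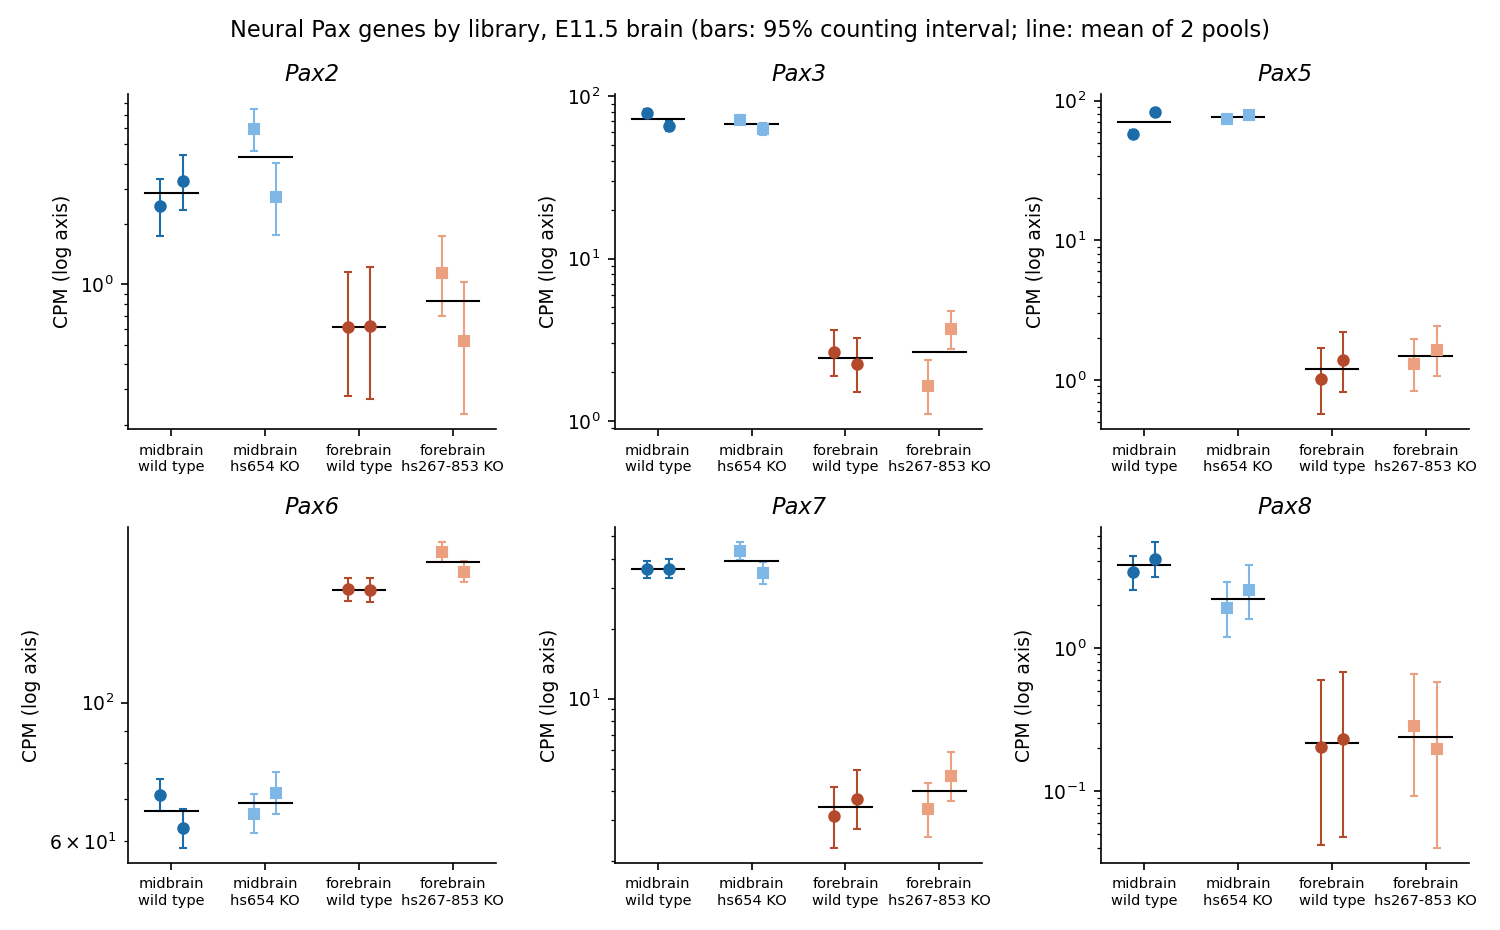
CPM of the 6 Pax genes in the 8 libraries on log axes, one panel a gene, with 1 point per pool, bars for the 95% counting interval and a line for the mean of 2 pools. For each gene the 4 forebrain points and the 4 midbrain points are separate, with Pax6 alone higher in forebrain.

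Pax5, a member of the organizer subfamily, had the largest tissue difference of the 6. It measured 57.8 and 82.2 CPM in the wild-type midbrain pools and 1.02 and 1.39 CPM in the wild-type forebrain pools, from 15 and 18 forebrain counts. The knockout pools of each tissue lay with their wild type, at 74.2 and 78.2 CPM in hs654 knockout midbrain and 1.31 and 1.64 CPM in hs267-853 knockout forebrain. The lowest midbrain pool was 35.3-fold above the highest forebrain pool. Means were 70.0 ± 17.3 CPM in wild-type midbrain and 1.21 ± 0.265 CPM in wild-type forebrain (SD, n = 2). The fitted log2 change, forebrain minus midbrain, came to -5.86 (SE 0.228; adjusted p 1.72e-09 by edgeR).

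Pax8 belongs to the same subfamily and was scarce in both tissues. Wild-type midbrain pools held 3.35 and 4.15 CPM (53 and 52 counts) and wild-type forebrain pools 0.204 and 0.232 CPM (3 and 3 counts). Summed over pools, the level in midbrain was 17.1 times that in forebrain, with a counting interval of 7.59 to 47.6. The fitted log2 change came to -4.05 (SE 0.501; adjusted p 5.25e-05 by edgeR). The forebrain level was close to the 3 counts that a library without any count could still hold, which equal 0.170 to 0.328 CPM, and these few forebrain counts limit how well the fold is known.

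Pax2, the earliest of the 3 to act at the midbrain-hindbrain boundary, had the smallest midbrain excess. It measured 2.47 and 3.27 CPM in wild-type midbrain and 0.611 and 0.619 CPM in wild-type forebrain, from 39, 41, 9 and 8 counts. The groups did not overlap, and the fitted log2 change came to -2.20 (SE 0.520; adjusted p 0.00644 by edgeR).

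Pax3, which acts in dorsal neural tube and neural crest, measured 79.3 and 65.7 CPM in wild-type midbrain and 2.65 and 2.24 CPM in wild-type forebrain. The fitted log2 change came to -4.88 (SE 0.224; adjusted p 6.91e-09 by edgeR). Pax7, its closest relative, measured 36.0 and 36.3 CPM in wild-type midbrain and 3.12 and 3.71 CPM in wild-type forebrain. The fitted log2 change came to -3.41 (SE 0.181; adjusted p 2.20e-08 by edgeR). For both genes all 4 midbrain libraries lay above all 4 forebrain libraries, by a factor of at least 17.2 for Pax3 and 7.47 for Pax7 between the nearest libraries.

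Pax6 ran the other way. It measured 71.0 and 62.9 CPM in wild-type midbrain, and 152 CPM in each of the wild-type forebrain pools. Group means (SD, n = 2) were 151.7 ± 0.0509 CPM in forebrain and 67.0 ± 5.73 CPM in midbrain, a 2.26-fold difference with a 95% interval of 2.02 to 2.53. The fitted log2 change came to 1.18 (SE 0.0755; adjusted p 1.19e-07 by edgeR).

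By size of the tissue difference the order was Pax5, Pax3, Pax8, Pax7, Pax2 and, in the other direction, Pax6. The 95% intervals of the log2 fold changes were -6.35 to -5.36 for Pax5, -5.36 to -4.39 for Pax3 and -5.14 to -2.97 for Pax8. They were -3.80 to -3.01 for Pax7 and -3.32 to -1.07 for Pax2, so the intervals of each pair of neighbours in the midbrain part of the order met or overlapped. Differences between the genes were not tested. Among all 15383 tested genes ranked by log2 fold change towards midbrain, Pax5 was at place 47, Pax3 at 72, Pax8 at 101, Pax7 at 147 and Pax2 at 349. Ranked towards forebrain, Pax6 was at place 453.

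**Figure D2:**
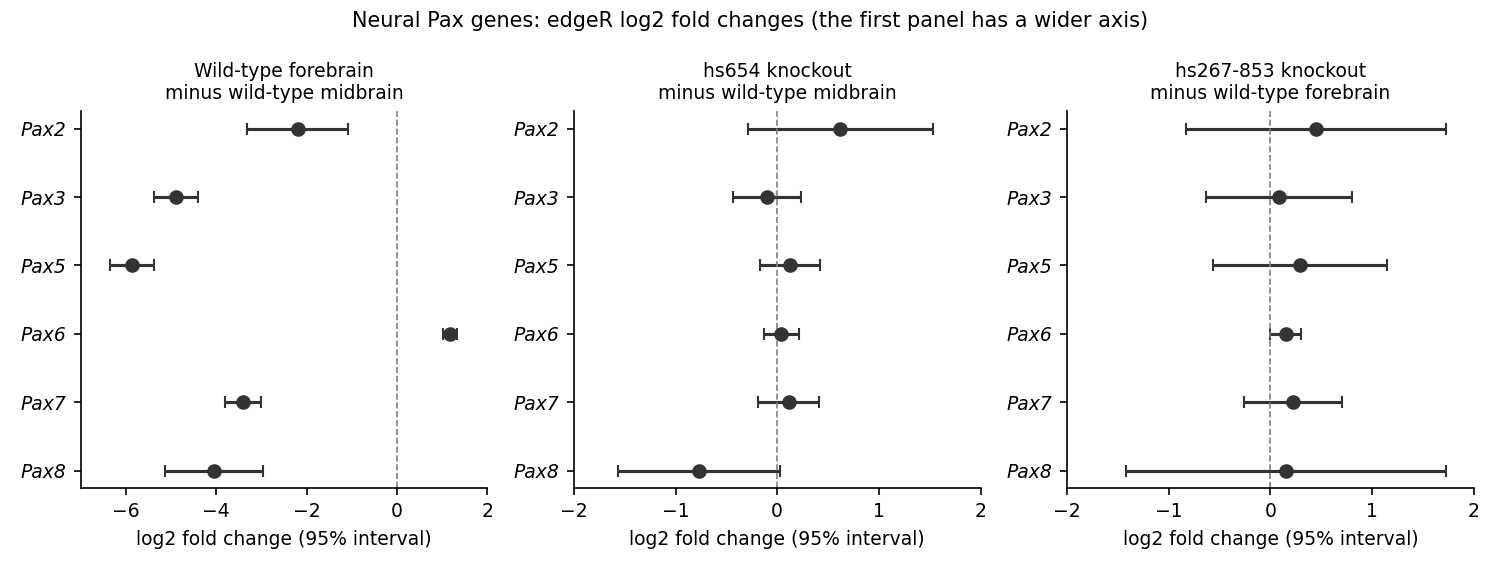
Log2 fold changes of the 6 Pax genes with 95% intervals from edgeR, for the tissue comparison (wider axis) and for both knockouts. The tissue intervals all exclude 0, from -5.86 for Pax5 to 1.18 for Pax6, and the knockout intervals all include 0.

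Loss of the hs654 element was examined in midbrain. No Pax gene was called (0 of 6; 0.00% of all tested genes) by edgeR, and 0 of 6 had an unadjusted p under 0.05, against 3.96% of all tested genes. DESeq2 and limma-voom also called 0 of the 6, with 0 and 1 at an unadjusted p under 0.05. Pools did not overlap between genotypes for 1 of the 6 genes, Pax8, against 36.7% of all tested genes.

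Pax8 measured 3.35 and 4.15 CPM in wild-type midbrain and 1.89 and 2.51 CPM in the knockout, from 53, 52, 22 and 23 counts. Both knockout pools were below both wild-type pools, yet the 95% counting intervals of the nearest pools overlapped, at 2.51 to 4.39 CPM in wild-type replicate 1 and 1.59 to 3.77 CPM in knockout replicate 2. The knockout's fitted change was log2 -0.77 (SE 0.368), and edgeR gave an adjusted p of 0.992 (unadjusted 0.0560). Over the 11 alternatives that gave a value, the unadjusted p ran from 0.0311 to 0.272, and the adjusted p from 0.703 to 1.

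Pax2 had the widest spread of the 6 over the midbrain libraries, with a ratio of highest to lowest of 2.41. The hs654 knockout pools held 5.94 and 2.73 CPM (69 and 25 counts), a 2.17-fold gap, and their counting intervals, 4.62 to 7.51 and 1.77 to 4.03 CPM, did not overlap. The second pool lay between the wild-type values of 2.47 and 3.27 CPM. On the log2 scale the fitted change was 0.62 (SE 0.419), and edgeR gave an adjusted p of 0.992 (unadjusted 0.162). It was -0.054 without knockout replicate 1, so its sign rested on that pool.

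The remaining members were known more precisely. For Pax6, at 66.4 and 71.7 CPM in the knockout pools, the 95% interval of the ratio of knockout to wild type was 0.912 to 1.16. For Pax5 it was 0.887 to 1.34, for Pax7 (43.2 and 34.7 CPM in the knockout) 0.876 to 1.33, and for Pax3 (71.8 and 63.0 CPM) 0.738 to 1.17. Ratios inside these intervals are not excluded by the 2 pools of each group.

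The midbrain pools also differed within a genotype. Pax5 was lowest in wild-type replicate 1, at 57.8 CPM, against 74.2 to 82.2 CPM in the other 3 midbrain libraries, and its counting interval of 54.1 to 61.6 CPM did not reach theirs. In the same pool 7 of 12 genes of a midbrain-hindbrain organizer list had their lowest midbrain value: En1, En2, Fgf17, Lmx1b, Sp8, Spry1 and Spry2. Fgf17, a signal of the isthmic organizer, measured 8.29 CPM there and 15.7 to 20.0 CPM in the other 3. Otx2, the factor that marks forebrain and midbrain up to the boundary, was highest in that pool, at 279 CPM, as was Pax3, at 79.3 CPM. Wild-type replicate 2 had the highest value of 6 of the 12 organizer genes, and of Pax5 and Pax8. The shares of all tested genes with their lowest or highest value in these pools were not computed, so the counts have no scale. Wild-type replicate 1 also stood apart in markers of other cells: 8 erythroid genes summed to 5393 CPM, against 2697 to 3035 CPM in the other 3, and 8 mesenchymal genes to 1285 CPM, against 1644 to 1799 CPM. Without wild-type replicate 1 the knockout value of Pax5 turned from 0.13 to -0.11 on the log2 scale, and that of Pax3 from -0.10 to 0.044. Without wild-type replicate 2 that of Pax5 was 0.40 (edgeR, adjusted p 0.915, unadjusted 0.00918). The hindbrain markers Hoxa2, Hoxb1, Hoxb2, Hoxa3, Hoxb3, Hoxd3 and Egr2 summed to 0.155 to 0.559 CPM over the 8 libraries, and Hoxd3 had 0 counts. The part of these markers in the Pax values was not tested.

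**Figure D3:**
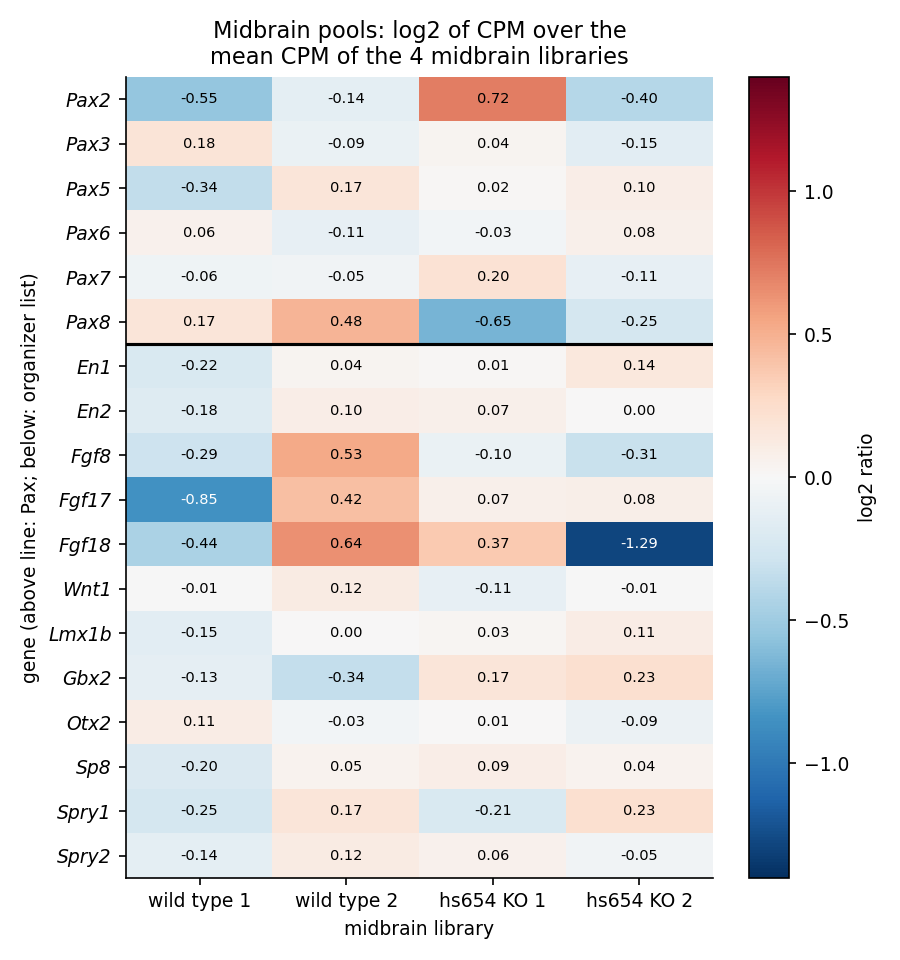
Log2 of each gene's CPM over its mean in the 4 midbrain libraries, for the 6 Pax genes (above the line) and 12 organizer genes (below it), with the value in each cell. Wild-type replicate 1 is low for Pax5 (57.8 CPM) and Fgf17 (8.29 CPM), and the hs654 knockout pools differ for Pax2 (5.94 and 2.73 CPM).

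Loss of hs267-853 was examined in forebrain. No Pax gene was called (0 of 6; 0.0130% of all tested genes) by edgeR, and 0 of 6 had an unadjusted p under 0.05, against 4.78% of all tested genes. DESeq2, which gave an adjusted p for 5 of the 6, and limma-voom also called 0, with 0 and 1 at an unadjusted p under 0.05. The log2 fold changes of the 6 were all above 0, from 0.080 for Pax3 to 0.45 for Pax2, but the pools were separate for Pax6 alone, against 31.1% of all tested genes.

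Pax6 measured 152 CPM in each wild-type pool and 174 and 162 CPM in the knockout pools. Both knockout values were higher, by 0.15 on the log2 scale (SE 0.0718; ratio interval 0.996 to 1.24), and edgeR gave an adjusted p of 0.984 (unadjusted 0.0580). Over 12 alternatives the unadjusted p ran from 0.0233 to 0.255 and the adjusted p from 0.322 to 1.00. The higher knockout pool, replicate 1, also had the highest sum over the forebrain libraries of 12 forebrain progenitor genes (2095 CPM, against 1867 to 1923 CPM in the other 3) and of 8 neural progenitor markers (3859 CPM, against 3419 to 3498 CPM). Its sum of 8 neuron markers was the highest as well, at 2023 CPM against 1435 to 1810 CPM. The same pool had the lowest sum of 8 mesenchymal markers, 1147 CPM against 1591 to 2032 CPM. Their part in the Pax6 value was not tested.

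The Pax genes that are scarce in forebrain varied between its pools. Pax3 held 3.67 CPM in knockout replicate 2 and 1.65 CPM in knockout replicate 1, on either side of the wild-type values of 2.65 and 2.24 CPM. Pax7 held 4.65 and 3.35 CPM in the same pools, and 3.12 and 3.71 CPM in wild type. Pax2 was highest in knockout replicate 1, at 1.13 CPM (20 counts), and lowest in knockout replicate 2, at 0.524 CPM (8 counts). Pax8 had 3 to 5 counts in each forebrain library. Without knockout replicate 2, Pax3 turned from 0.080 to -0.58 and Pax7 from 0.22 to -0.024 on the log2 scale.

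Knockout replicate 2, where Pax3, Pax5 and Pax7 had their highest forebrain values, was also highest for the summed diencephalon markers. These 8 genes (Barhl2, Tcf7l2, Lhx9, Gbx2, Irx1, Irx3, Tal2 and Sim1) summed to 161 CPM there and 142 CPM in knockout replicate 1, against 120 and 126 CPM in wild type. All 8 were called lower in wild-type forebrain than in wild-type midbrain, against 15.3% of all tested genes. In wild-type midbrain they summed to 854 and 753 CPM, so their sum does not tell diencephalon from midbrain tissue. In the knockout 7 of the 8 were higher and 0 were called. By edgeR 5 had an unadjusted p under 0.05, against 4.78% of all tested genes. Otx2, of the organizer list, measured 67.5 and 75.8 CPM in knockout replicates 1 and 2, and 44.5 and 59.4 CPM in wild type. The other genes of that list did not all follow: of the 12, 7 were higher and 4 lower in the knockout, and 0 were called by edgeR. Pax3 had its lowest forebrain value in knockout replicate 1. The part of these genes in the Pax values was not tested.

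The difference between the knockout effects, midbrain minus forebrain, was called for 0 of 6 Pax genes by edgeR (0.00650% of all tested genes), and 0 of 6 had an unadjusted p under 0.05 (4.02% of all tested genes). DESeq2 and limma-voom gave 0 and 0 by either measure. The values ran from -0.93 for Pax8 to 0.17 for Pax2. Each knockout was measured in 1 tissue, so element and tissue cannot be told apart here.

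Genes that overlap or neighbour the Pax loci were read in the same comparison. In the RefSeq table, with the build GRCm38.p6 that matches the mm10 named in the submitters' processing notes, Pax5 spans chr4:44524748-44710694 and contains 5730488B01Rik (chr4:44702800-44705110), a long non-coding RNA gene. Like Pax5 it was higher in midbrain, and measured 9.05 and 10.7 CPM in wild-type midbrain, 9.55 and 12.5 CPM in hs654 knockout midbrain, and 0.0679 and 0.0774 CPM in wild-type forebrain, from 1 count each. Summed over pools the midbrain level was 135 times the forebrain level, with a counting interval of 37.1 to 1122. The nearest tested genes on either side of Pax5, Melk and Zcchc7, differed between tissues by 0.18 and -0.39 on the log2 scale, and of these Zcchc7 was called (adjusted p 0.0121, edgeR).

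In hs267-853 knockout forebrain, 5730488B01Rik had 13 and 12 counts (0.738 and 0.786 CPM) where wild type had 1 and 1. The summed level was 10.5 times that of wild type, with a counting interval of 2.62 to 91.5. By edgeR p was 0.000311 before and 0.272 after adjustment, so it was not called. Over 12 alternatives the adjusted p ran from 0.00248, without a filter on low counts, to 1.00. Pax5 itself measured 1.31 and 1.64 CPM against 1.02 and 1.39 CPM, a log2 fold change of 0.29 (SE 0.395). Whether counting was stranded is not given in the sources used here, so reads of Pax5 and of this gene may not be fully separate.

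At Pax2, Pax3, Pax7 and Pax8 the tested neighbours had smaller log2 differences than the Pax gene itself. Around Pax2 (chr19:44746601-44838269), Hif1an differed by 0.00096 on the log2 scale and was not called. Slf2 was called higher in forebrain, by 0.34 (adjusted p 0.00612, edgeR). Around Pax3 (chr1:78101267-78197136), Epha4, an ephrin receptor gene, was called higher in forebrain, by 0.72 (adjusted p 8.54e-06, edgeR). Sgpp2 differed by -0.95 (adjusted p 0.0514 by edgeR, not called). Around Pax7 (chr4:139737059-139833530), Aldh4a1 and Klhdc7a differed by 0.36 and 0.47 and were not called. Beside Pax8 (chr2:24420551-24475599), Cacna1b, which encodes a neuronal calcium channel subunit, was lower in forebrain by 1.62 (SE 0.138; adjusted p 1.60e-06 by edgeR), while Psd4 differed by -0.79 and was not called.

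Pax6 (chr2:105668896-105698410) overlaps Pax6os1, an antisense RNA gene, and the end of Elp4. Pax6os1 had 2 to 16 counts in a library and a log2 difference of 1.35, beside 1.18 for Pax6 (SE 0.767 for Pax6os1; adjusted p 0.211 by edgeR). Elp4, an Elongator subunit gene whose introns are known to hold Pax6 enhancers, differed by 0.25 (adjusted p 0.110), and Paupar, a long non-coding RNA gene upstream of Pax6, by -1.09 (adjusted p 0.151). Immp1l was higher in forebrain by 0.46 (adjusted p 0.0216). Over the 15 tested neighbours and overlapping genes, 3 were called higher and 3 lower, against 14.3% and 15.3% of all tested genes. Their median absolute log2 difference was 0.47, against 0.23 over all tested genes. In both knockouts 0 of the 15 were called by edgeR. An unadjusted p under 0.05 was found for 0 (hs654, against 3.96% of all tested genes) and 1 (hs267-853, against 4.78%).

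**Figure D4:**
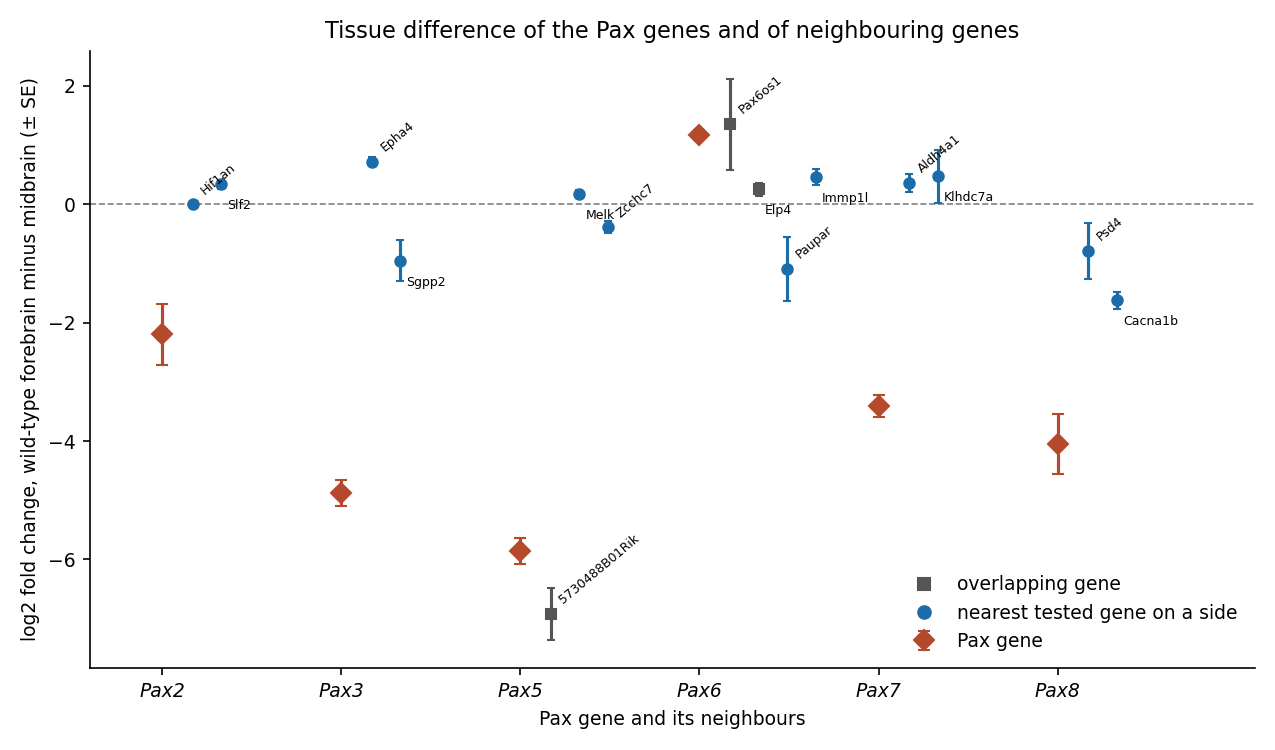
Log2 fold change, wild-type forebrain minus midbrain, with its SE, for each Pax gene (diamonds), genes overlapping it (squares) and the nearest tested gene on each side (circles). 5730488B01Rik lies near Pax5, and the other neighbours lie between -1.62 (Cacna1b) and 1.35 (Pax6os1).

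Gene lists of the Pax networks showed both directions in the tissue comparison. Over all tested genes 14.3% were called higher and 15.3% lower in forebrain, which is the scale for each list below. Of 12 midbrain-hindbrain organizer genes, 5 were called lower and 3 higher in forebrain and 4 were not called, with a median log2 difference of -0.82 (0.0012 over all tested genes). En2, a partner of Pax2, Pax5 and Pax8, had 0 counts in forebrain, while wild-type midbrain averaged 144 ± 19.8 CPM (SD, n = 2). Wnt1, the midbrain signal of the boundary, fell by 4.87 on the log2 scale in forebrain, Gbx2, a factor of anterior hindbrain and thalamus, by 2.66, and Otx2 by 2.36. In both knockouts 0 of the 12 were called by edgeR. An unadjusted p under 0.05 was found for 0 (hs654, against 3.96% of all tested genes) and 2 (hs267-853, against 4.78%).

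Of 12 forebrain progenitor genes, 9 were called higher and 2 lower in forebrain, with a median of 2.17. Eomes, of intermediate cortical progenitors, was higher by 6.86, Gsx2, of the ventral telencephalon, by 5.35 and Emx1, of the cortex, by 4.47. Fabp7 and Sfrp2, which are known Pax6-dependent genes in cortex, were the 2 lower ones, with log2 differences of -1.02 and -0.24, and Neurog2, a direct target of Pax6, differed by 0.0079. They are named for that role, after their values were seen. In the knockouts 0 of the 12 were called by edgeR. Unadjusted p was under 0.05 for 1 (hs654, against 3.96% of all tested genes) and 3 (hs267-853, against 4.78%).

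The 12 dorsal neural tube genes were called in both directions in equal number. Of these, 5 were called higher and 5 lower in forebrain, with a median of -0.25. Wnt1 and Olig3, a factor of dorsal progenitors, were lower in forebrain, with log2 differences of -4.87 and -1.98, and Msx2 and Wnt3a, of the dorsal midline, were higher by 1.62 each. In the knockouts 0 of the 12 were called by edgeR. Unadjusted p was under 0.05 for 2 (hs654, against 3.96% of all tested genes) and 6 (hs267-853, against 4.78%).

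The 15 Pax partner genes included the Groucho co-repressors Tle1 to Tle4, the Pax-interacting genes Paxip1 and Paxbp1, and genes of the Eya, Dach and sine oculis homeobox families that work with Pax factors in several organs. Of these, 8 were called higher and 3 lower in forebrain, with a median of 0.49. Six2, Eya4 and Six4 were higher by 2.76, 1.91 and 1.15, and Dach2 was lower, with a log2 difference of -1.10. Six2 is also a gene of head mesenchyme, and the 8 mesenchymal markers summed to 1285 and 1799 CPM in wild-type midbrain and 2032 and 1591 CPM in wild-type forebrain. Of these markers Twist1, Twist2, Prrx1 and Prrx2 were called higher in forebrain, by 3.62-, 2.64-, 4.20- and 3.03-fold, and the other 4, 3 of them collagen genes, were not called. Their part in the values of Six2, Eya4 and Six4 was not tested. In the knockouts 0 of the 15 were called by edgeR. Unadjusted p was under 0.05 for 0 (hs654, against 3.96% of all tested genes) and 4 (hs267-853, against 4.78%).

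Genes whose pattern over the 8 libraries was most like that of a Pax gene were found by Pearson's r of log2 CPM among 14315 genes with a mean of at least 1 CPM. The 8 libraries span both tissues, r within a tissue was not computed, and many genes reached 0.95: 888 for Pax5, 852 for Pax7, 767 for Pax3, 579 for Pax6, 561 for Pax8 and 195 for Pax2. For Pax5 the 3 closest were Sdk2, Parvb and En2 (r 0.998 for each). For Pax3 they were BC024139 (0.998), Fzd10 (0.997), a Wnt receptor gene, and Pcp4l1 (0.997). For Pax7 they were Kcnk9, Pcp4l1 and Gabrb2 (0.998 for each), so that Pcp4l1 was shared by the pair. Pax6 was closest to Rpl9, Gldc and Inka2 (0.997 for each). Pax8 was closest to A330076H08Rik (0.994), Jakmip2 (0.994) and Lgi1 (0.993). Pax2 was closest to Ksr2 (0.991), Sema6c (0.990) and Fbxo32 (0.987). The size of a difference does not enter r. Among these closest genes the log2 range over the 8 libraries ran from 0.26 for Rpl9 to 10.1 for En2, and was 0.73 for Sema6c and for Jakmip2.

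Markers of other cells in which Pax genes are known to act were checked beside the values. The skeletal muscle markers Myf5, Myod1, Myog, Lbx1, Musk and Chrna1 summed to 0.218 to 0.696 CPM over the 8 libraries. Of 9 eye markers, Rax, Six6, Vax2, Tyrp1 and Cryaa summed to 0.464 to 1.53 CPM, with 0 counts of Cryaa. Neural crest markers, where Pax3 also acts, summed to 183 to 207 CPM over the midbrain and 99.7 to 137 CPM over the forebrain libraries. Of the 6 neural crest markers that could be tested, 2 were called higher and 2 lower in wild-type forebrain. The shares of all tested genes were 14.3% and 15.3%. Their part in the Pax values was not tested.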

How the data were processed

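The input was raw gene counts, deposited by the authors as 1 table for each of the 8 RNA libraries and not normalized. The submitters' processing notes name STAR, HTSeq, DESeq2 and build mm10, without versions. Annotation and strand setting are not given in the sources used here. Rows naming no gene were left out. Reads without a feature made up 55.4% to 58.9% and ambiguous reads 0.431% to 0.488% of a library; the remaining 40.7% to 44.1% lay in genes.

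Sample titles gave groups and replicate numbers. After filterByExpr and TMM scaling (factors 0.978 to 1.01), edgeR 4.0.16 (R 4.3.3) fitted a quasi-likelihood model with a mean for each of 4 groups over the 8 libraries; residual degrees of freedom were 4 and tests two-sided. The standard error is the fitted change divided by the root of F. The procedure was tested on simulated data. Alternatives covered RLE or upper-quartile scaling, dropping the low-count filter, requiring a mean of 50 counts, DESeq2 1.42.0, limma-voom (limma 3.58.1), fits to only the groups compared, a replicate block, and omission of single libraries.

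Members and gene lists were chosen with earlier results of these data known. Text names the 6 members, Pax1, Pax4, Pax9, overlapping and nearest tested genes, the 3 genes most similar in pattern, and up to 4 called genes per list with the largest tissue difference; other names are marked or are marker genes. No replicate pair agreed within counting noise (chi-square over its degrees of freedom was 3.75 to 7.74), so each library counts as a sample. Promoters and positions are from RefSeq tables of GRCm38.p6. Some results are not reported here.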

Additional observations from a re-analysis of the deposited data

How the results depend on the processing

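The tissue difference of the Pax genes kept its direction and its call in all 70 fits of a member under the alternatives; with a mean of at least 50 counts, 4 members could be tested, and all 4 were called. In the knockout comparisons and in the difference between them, 0 members were called under any alternative. Signs of values that were not called turned in 22 fits, and all but 1 of these left out a library. Left-out libraries gave ranges for hs654 of -0.054 to 1.05 (Pax2), -0.23 to 0.044 (Pax3), -0.11 to 0.40 (Pax5), -0.043 to 0.13 (Pax6) and -0.047 to 0.26 (Pax7). For hs267-853 they were -0.23 to 0.87 (Pax2), -0.58 to 0.58 (Pax3), -0.024 to 0.45 (Pax7) and -0.14 to 0.37 (Pax8), and Pax3 was -0.038 in limma-voom. For the difference between knockouts they were -0.49 to 0.86 (Pax2), -0.68 to 0.47 (Pax3), -0.40 to 0.11 (Pax5) and -0.34 to 0.14 (Pax7). For 5730488B01Rik the hs654 range was -0.046 to 0.35; its hs267-853 value of 3.24 was called, at an adjusted p of 0.00248, when low counts were not filtered, an alternative applied to this gene after its values were seen. The cause was not tested.

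Over all genes, calls in the tissue comparison numbered 4548 and ranged from 2816 (without midbrain wild-type replicate 1) to 5072. For hs654 they numbered 0, with up to 22 without a filter. For hs267-853 they numbered 2, with 161 without a filter and 209 without knockout replicate 2. For the difference they numbered 1, with up to 111 without a filter. With the replicate number as a block the members called were 6, 0, 0 and 0, as without it. The numbers did not pair the samples: the correlation of replicate differences between groups was -0.025 to 0.067, and with 2 replicates a group a block uses 1 more degree of freedom. Levels per kilobase were not run, because transcript and protein lengths were not used here. Low forebrain counts of Pax2 and Pax8 limit their fold changes.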

Other observations

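The other 3 Pax genes were near the limit of detection in these tissues. Pax1, a gene of the axial skeleton and thymus, had 0 to 10 counts in a library. It passed the filter on low counts through 2 midbrain libraries, with a log2 tissue difference of -2.34 (SE 1.43) and was not called (adjusted p 0.249, edgeR). Pax9, of the face, teeth and pharyngeal pouches, had 0 to 7 counts, with the 7 in midbrain wild-type replicate 2, which also had the most Pax1 counts. Pax4, of the pancreas, had 1 count in all 8 libraries together. Pax4 and Pax9 were not tested.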
